A study of Homo sapiens with 24 samples.

Results

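Huh7 is a cell line from a human hepatocellular carcinoma, the main cancer of liver cells. It was analysed here through the 4 Huh7 libraries among the 24 RNA sequencing libraries of a study of 6 liver cancer cell lines. The members were taken by the cell line named in the labels and not by a measured value, though earlier results of these data were known by then. In the first pair the cells carried an siRNA against SFPQ (siSFPQ, labelled as an SFPQ knockdown) and were given TGF-beta at 2 ng/ml for 24 hours or left untreated. In the second pair they carried a control siRNA (siCTL, labelled wt) with the same treatments. The other 20 libraries held the same 4 conditions in Hep3b, Huh1, HepG2, HLE and SK-HEP1, with 1 library per line and condition. All cells grew in DMEM with 10% serum and polyadenylated RNA was sequenced. Huh7 thus had no replicate library of a condition, each of its changes was the mean of 2 pairs, and the labels name neither separate cultures nor a batch.

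SFPQ is a nuclear RNA- and DNA-binding protein of the DBHS family and a core part of paraspeckles, the nuclear bodies built on the NEAT1 RNA. TGF-beta binds a pair of receptor kinases that phosphorylate SMAD2 and SMAD3, which enter the nucleus with SMAD4 and act on target genes. In liver cells this pathway is known for growth arrest and for mesenchymal and matrix gene programs, and the title of the study asks about SMAD4 held in SFPQ condensates.

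Values are FPKM, fragments scaled to transcript length and to the mapped fragments of the library, and changes are differences of log2(FPKM + 1), which understate the change of genes near 0. A change was called at an adjusted p under 0.05 in a fit over all 24 libraries, in which the spread was shared by the 6 lines. In a fit to the 4 Huh7 libraries alone the residual SD was 1.37 times the shared one in the median. Their estimated array weight was 0.38 against 0.826 to 1.70 elsewhere. The only residual of the fit to Huh7 alone is its interaction of knockdown and TGF-beta. Both values therefore hold spread and any true interaction of Huh7 together. A gene whose TGF-beta change depends on the siRNA is less readily called in the fit of Huh7 alone. The words rose and fell are therefore kept for genes called both in the fit of 24 libraries and in the fit of the 4 Huh7 libraries alone, and where a count rests on the first fit only, this is said. Depth estimated from low values was 0.355 of the median library in Huh7 siSFPQ with TGF-beta, the lowest of the 24, and 0.599 in untreated siSFPQ, 0.781 in siCTL with TGF-beta and 0.763 in untreated siCTL. All 14 hepatocyte markers stood at 1 FPKM or more in each Huh7 library. In contrast, PTPRC and CD3E of immune cells, KDR and TEK of endothelium and THY1 and DCN of fibroblasts were under 0.1 FPKM in all 4. Of the 12 immune markers, 2, LYZ and CD68, stood at 1 FPKM or more in each Huh7 library, and the list summed to 521.8 and 392.5 FPKM in untreated and treated siSFPQ cells, against 599.9 and 314.3 FPKM in untreated and treated siCTL cells (15.4 to 778 FPKM in the other lines). Of 11 endothelial markers 1 reached that level, with sums of 57.4 to 75.0 FPKM in Huh7 (5.96 to 71.7 in the other lines), and of 12 stellate and fibroblast markers 3 to 6 did, with sums of 43.2 to 226.3 FPKM (26.2 to 336.5 in the other lines).

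SFPQ itself was at 51.4 FPKM in untreated siSFPQ cells and 54.6 FPKM in siSFPQ cells with TGF-beta, against 197.5 FPKM in untreated siCTL cells and 178.1 FPKM in siCTL cells with TGF-beta. The groups did not overlap, and 26.0% of the siCTL level remained without TGF-beta and 30.7% with it. The log2 change was -1.80 (SE 0.08, adjusted p = 5.83e-07), inside the range of -3.26 to -1.15 in the other 5 lines. TGF-beta did not move SFPQ detectably (-0.03, adjusted p = 0.793). Its DBHS partner NONO changed by -0.26 and PSPC1 by 0.34, calls that only the fit of 24 libraries made. NEAT1 changed by 0.27 (adjusted p = 0.12), with 0.52 in the untreated and 0.03 in the TGF-beta-treated pair. In the other 5 lines it changed by 0.63 to 1.07 untreated and by 0.27 to 1.22 with TGF-beta. The difference of Huh7 from them was not called.

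Upstream sequence is shown for 3 genes that the results turn on: NODAL and CNN1, among the largest TGF-beta rises in Huh7, and TGFB1, whose TGF-beta change differed between siSFPQ and siCTL cells by more than in the other lines. The stretches are the 250 bases before the RefSeq start on the gene's strand, from the RefSeq table of GRCh38.p14, at chr10:70441682-70441931 (minus strand), chr19:11538601-11538850 (plus strand) and chr19:41353923-41354172 (minus strand). Capitals mark the SMAD-box letters CAGAC or, on the other strand, GTCTG.
NODAL: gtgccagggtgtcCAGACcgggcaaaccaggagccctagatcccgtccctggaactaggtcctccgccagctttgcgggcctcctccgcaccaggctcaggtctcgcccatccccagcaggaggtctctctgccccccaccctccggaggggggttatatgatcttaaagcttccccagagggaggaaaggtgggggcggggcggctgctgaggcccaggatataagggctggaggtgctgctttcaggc
CNN1: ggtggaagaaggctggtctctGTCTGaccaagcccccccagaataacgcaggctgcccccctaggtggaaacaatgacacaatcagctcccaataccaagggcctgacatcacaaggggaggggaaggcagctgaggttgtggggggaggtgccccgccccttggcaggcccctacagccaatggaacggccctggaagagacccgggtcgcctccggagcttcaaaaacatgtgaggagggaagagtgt
TGFB1: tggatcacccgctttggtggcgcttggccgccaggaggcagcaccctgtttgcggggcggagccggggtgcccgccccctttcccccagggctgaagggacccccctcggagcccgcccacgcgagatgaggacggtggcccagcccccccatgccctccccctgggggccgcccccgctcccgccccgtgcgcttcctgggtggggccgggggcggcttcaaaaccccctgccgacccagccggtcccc
Of the 10 genes with the largest TGF-beta rises, 7 were found in the table, and 4 of these 7 held the SMAD-box letters, as did 38% of 35116 human promoters. The palindrome GTCTAGAC and the FOXH1 letters TGTGGATT or TGTGTATT, searched on both strands, were in 0 of the 7 and in 0.182% and 1.37% of all promoters.

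Under TGF-beta the 10 genes with the largest called increases in Huh7 included a collagen and a collagen cross-linking enzyme, muscle actin and calponin, and NODAL with its LEFTY antagonists. Across 12613 genes tested, 3623 were called (28.7%), of which 1627 were higher (12.9%) and 1996 lower (15.8%) with TGF-beta. The fit of 24 libraries and the fit of Huh7 alone shared 1114 calls (8.83%), 632 higher (5.01%) and 482 lower (3.82%). At changes of at least 2-fold the rises outnumbered the falls, with 282 called genes higher and 61 lower. When each library was scaled to a common median ratio, 1915 were higher and 1586 lower, so the split of small changes depends on scaling.

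COL1A1, the main chain of type I collagen, stood at 90.9 FPKM in siSFPQ cells and 27.6 FPKM in siCTL cells with TGF-beta, against 1.93 FPKM in untreated siSFPQ cells and 0.658 FPKM in untreated siCTL cells. Both treated libraries lay far above both untreated ones, with a log2 change of 4.54 (SE 0.17, adjusted p = 1.32e-07), and the other 5 lines changed by 0.40 to 2.46. LOXL4, a lysyl oxidase that cross-links collagen, was at 85.2 and 38.5 FPKM in siSFPQ and siCTL cells with TGF-beta, against 2.06 and 1.24 FPKM in untreated siSFPQ and siCTL cells (4.48, SE 0.14, adjusted p = 4.86e-08). LOXL2 of the same family was at 283.5 and 106.4 FPKM in siSFPQ and siCTL cells with TGF-beta, against 60.9 and 18.97 FPKM in untreated siSFPQ and siCTL cells. Its change of 2.31 lay above the range of -0.15 to 0.73 in the other 5 lines, and that difference was called (2.06, SE 0.29, adjusted p = 0.0463). NPNT, a matrix ligand of integrins, rose by 4.03 and SEMA7A, a membrane-anchored semaphorin, by 4.12 on the log2 scale.

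NODAL, a TGF-beta family ligand of the early embryo that signals through SMAD2 and SMAD3, had 17.7 and 8.13 FPKM in siSFPQ and siCTL cells with TGF-beta, against 0.152 and 0.2 FPKM in untreated siSFPQ and siCTL cells (3.48, SE 0.17, adjusted p = 1.06e-06). Of the other 5 lines only HepG2 reached 1 FPKM of NODAL in any library. It had 5.75 and 7.70 FPKM in siSFPQ and siCTL cells with TGF-beta, against 0.153 and 0.958 FPKM in untreated siSFPQ and siCTL cells. LEFTY1, a secreted antagonist of NODAL, had 47.8 and 32.6 FPKM with TGF-beta in siSFPQ and siCTL cells, against 1.07 and 1.38 FPKM in untreated siSFPQ and siCTL cells (4.19, SE 0.13, adjusted p = 4.55e-08). HepG2 had the largest change of the other 5 lines in LEFTY1 (1.99 and 1.54 in siSFPQ and siCTL cells). The same held for LOXL4 (2.71 and 2.11) and NPNT (2.98 and 2.40). LEFTY2 had 73.2 FPKM in siSFPQ and 7.01 FPKM in siCTL cells with TGF-beta, against 0.101 FPKM in untreated siSFPQ cells and a listed 0 in untreated siCTL cells. The fit of 24 libraries called LEFTY2 (4.54, SE 0.46, adjusted p = 0.000297), and the fit of Huh7 alone did not (adjusted p = 0.105). LEFTY1 and LEFTY2 are near-identical copies, and how reads were divided between them is not given in the sources used here, so their separate levels are uncertain.

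Actin-binding genes of contractile cells moved the same way. CNN1, calponin of smooth muscle, had 109.0 and 93.0 FPKM in siSFPQ and siCTL cells with TGF-beta, against 3.65 and 10.6 FPKM in untreated siSFPQ and siCTL cells. Its change was 3.79 (SE 0.30, adjusted p = 2.81e-05), set against 0.02 to 0.88 in the other 5 lines. ACTA1, skeletal-muscle actin, had 11.9 and 99.0 FPKM in siSFPQ and siCTL cells with TGF-beta, against 0.222 and 3.10 FPKM in untreated siSFPQ and siCTL cells (4.01, SE 0.22, adjusted p = 2.20e-06). Of the other 5 lines HepG2 changed ACTA1 most, by 1.82 and 1.64 in siSFPQ and siCTL cells. ACTA1 is close in sequence to ACTA2, which stayed under 0.2 FPKM in all 4 Huh7 libraries, and reads may be shared among the actin genes. TAGLN, transgelin, rose by 2.31 and MYL9, a myosin light chain, by 1.41. Over the mesenchymal and actin list, 13 of 20 measured members rose and 0 fell in both fits (15 and 0 in the fit of 24 libraries), with a median of 0.65 beside -0.04 over all genes tested. Over the matrix list, 8 of 17 rose and 0 fell in both fits (10 and 0), with a median of 0.68. Beside these counts, 5.01% of all genes tested rose and 3.82% fell in both fits. Over all members that could be set against the other lines, the medians were 0.54 for the 25 of the mesenchymal and actin list (0.22 to 0.52 in the other lines) and 0.37 for the 24 of the matrix list, inside the 0.16 to 0.37 of the other lines. Among stellate and fibroblast markers, COL1A1, COL1A2, PDGFRB and RGS5 rose, while DCN, THY1 and DES were under 0.1 FPKM in all 4 libraries. The summed FPKM of that marker list was 226.3 and 97.6 in siSFPQ and siCTL cells with TGF-beta, against 43.2 and 48.9 in untreated siSFPQ and siCTL cells, and its part in these rises was not tested. In bulk RNA, fewer cells of a kind and less RNA per cell cannot be told apart.

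**Figure D1:**
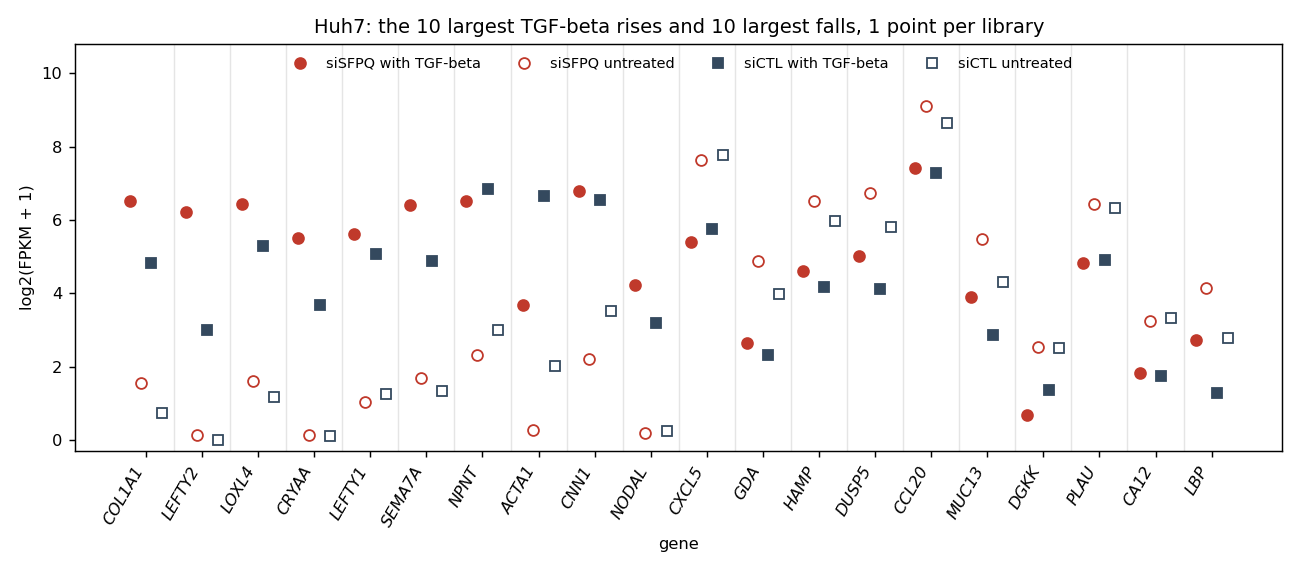
Level of the 10 genes with the largest TGF-beta rises and the 10 with the largest falls in Huh7, as log2(FPKM + 1) on the vertical axis, 1 point per library. Filled points are TGF-beta libraries and open points untreated ones, red circles are siSFPQ and dark squares siCTL. For COL1A1 both filled points (90.9 and 27.6 FPKM) lie above both open ones (1.93 and 0.658 FPKM), and for CXCL5 both filled points lie below.

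Falls under TGF-beta were smaller than the leading rises. CXCL5, a neutrophil-attracting chemokine, had 41.2 and 53.1 FPKM in siSFPQ and siCTL cells with TGF-beta, against 198.2 and 218.9 FPKM in untreated siSFPQ and siCTL cells (-2.13, SE 0.13, adjusted p = 3.02e-06). HAMP, the iron hormone hepcidin, had 23.3 and 17.1 FPKM in siSFPQ and siCTL cells with TGF-beta, against 90.4 and 61.7 FPKM in untreated siSFPQ and siCTL cells (-1.85, SE 0.14, adjusted p = 1.60e-05). DUSP5, an ERK phosphatase, fell by 1.70 and LBP, the lipopolysaccharide-binding plasma protein, by 1.45. PLAU, urokinase, fell by 1.51, where the other 5 lines ran from -0.29 to 1.04. GDA, MUC13, DGKK and CA12 fell by 1.496 to 1.95. CCL20 changed by -1.53 and was called in both of these fits, but not with weighted libraries (adjusted p = 0.139).

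Of 35 canonical TGF-beta targets, 27 passed the filter, and 15 of these rose and 0 fell in both fits (22 and 0 in the fit of 24 libraries), with a median change of 1.18. Of all genes tested, 5.01% rose and 3.82% fell in both fits. Over the 32 targets that could be set against the other lines the Huh7 median was 0.90, inside their range of 0.42 to 1.13. JUNB, an AP-1 subunit, had 277.8 and 124.4 FPKM in siSFPQ and siCTL cells with TGF-beta, against 28.9 and 17.4 FPKM in untreated siSFPQ and siCTL cells (2.99, SE 0.14, adjusted p = 6.67e-07). PMEPA1, a membrane protein that restrains SMAD signalling, was at or under 0.148 FPKM in all 4 Huh7 libraries, while its change in the other 5 lines was 1.49 to 4.08.

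Among pathway components, TGFB2, a ligand, rose by 1.79 (other lines 0.06 to 0.81), the receptor kinase ACVR1 by 1.27, TGFBR1 by 0.76 and SMAD3 by 0.99. SMAD2 changed by 0.01 and SMAD4 by -0.04, and neither was called. TGFBR2 changed by -0.19 (adjusted p = 0.227). Inhibitors on the feedback list rose in 5 of 12 measured members and fell in 0 in both fits (6 and 0 in the fit of 24 libraries). Among them SKIL rose by 1.19, SMAD7 by 0.93 and BAMBI by 1.03. Of all genes tested, 5.01% rose and 3.82% fell in both fits. BMP and ID targets, which answer to the related BMP branch, had a median of -0.48: ID3 fell by 1.20, ID4 by 0.90 and HAMP by 1.85, and 1 of 9 measured members, BAMBI, rose. Over the 11 members that could be set against the other lines the median was -0.05, inside their range of -0.39 to 0.05, and over the 9 in the siCTL pair alone it was -0.29.

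The cytostatic genes were mixed. CDKN2B, an inhibitor of the G1 kinases, had 35.0 and 29.8 FPKM in siSFPQ and siCTL cells with TGF-beta, against 10.4 and 7.81 FPKM in untreated siSFPQ and siCTL cells (1.73, SE 0.11, adjusted p = 5.56e-06), above the -0.03 to 1.07 of the other 5 lines. That difference was not called (adjusted p = 0.27). CDKN1A, the p21 inhibitor, was low in Huh7 and went the other way, with 5.71 and 4.36 FPKM in siSFPQ and siCTL cells with TGF-beta, against 9.25 and 6.11 FPKM in untreated siSFPQ and siCTL cells. Only the fit of 24 libraries called it (-0.51, adjusted p = 0.00206), and the other 5 lines changed by -0.06 to 0.89. MYC fell by 0.86 and CDC25A, a phosphatase that activates cyclin-dependent kinases, by 0.98, while GADD45B, a stress and growth-arrest gene, rose by 1.94. BMF, a BH3-only death gene, rose by 2.21. On the G1/S list 6 of 32 members fell and 0 rose in both fits (17 and 1 in the fit of 24 libraries), with a median of -0.26, and on the G2/M list 0 changed in both fits (5 lower and 1 higher in the fit of 24 libraries). Over all genes tested, 3.82% were lower and 5.01% higher in both fits, and 15.8% and 12.9% in the fit of 24 libraries.

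Glycolysis and hypoxia genes had a median of 0.41, with 7 of 27 measured members higher and 0 lower in both fits (17 and 1 in the fit of 24 libraries). In the 29 members shared with the other lines the Huh7 median of 0.41 lay outside their range of -0.22 to 0.04. PFKFB3 and PFKFB4, which make the activator of phosphofructokinase, rose by 1.13 and 0.84, the glucose transporter SLC2A1 by 0.70 and LDHA by 0.55. Cholesterol synthesis genes had a median of -0.46, outside the -0.22 to 0.03 of the other lines, with 4 of 24 lower and 0 higher in both fits (15 and 0 in the fit of 24 libraries). HMGCS1, an early enzyme of the pathway, had 139.1 and 158.6 FPKM in siSFPQ and siCTL cells with TGF-beta, against 307.8 and 217.4 FPKM in untreated siSFPQ and siCTL cells (-0.80, SE 0.12, adjusted p = 0.00115). The cholesterol median was -0.63 in the siSFPQ pair and -0.20 in the siCTL pair, and the siSFPQ pair holds the shallowest library. Beside the counts of both lists, 5.01% of all genes tested rose and 3.82% fell in both fits (12.9% and 15.8% in the fit of 24 libraries). Under TGF-beta 11 of 30 list medians of Huh7 lay outside the range of the other lines, and 6 to 13 of each other line.

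After SFPQ knockdown many cell-cycle, DNA-repair and glycolysis genes fell in Huh7, while more members rose than fell in the lists of BMP targets, NF-kB genes and MAPK phosphatases. Of 12613 genes tested, 5801 were called (46.0%), 2030 higher (16.1%) and 3771 lower (29.9%) in siSFPQ cells. Both fits called 2907 (23.0%), 959 higher (7.6%) and 1948 lower (15.4%). The split again moved with scaling: at a common median ratio 2944 were higher and 2744 lower, and the median change of all genes was 0.01 there and -0.08 without scaling. Called changes of at least 2-fold numbered 180 higher and 309 lower.

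Among the rises, BGN, the matrix proteoglycan biglycan, had 11.2 FPKM in untreated siSFPQ cells and 89.0 FPKM in siSFPQ cells with TGF-beta, against 2.72 and 7.94 FPKM in untreated and TGF-beta-treated siCTL cells (2.52, SE 0.24, adjusted p = 3.84e-05). S100A4, a calcium-binding protein of motile cells, had 21.6 and 45.02 FPKM in untreated and treated siSFPQ cells, against 3.67 and 6.77 FPKM in untreated and treated siCTL cells (2.42, SE 0.12, adjusted p = 7.65e-07). Both siSFPQ libraries exceeded both siCTL libraries for each of these genes. CSF1, the macrophage growth factor, had 61.2 and 63.2 FPKM in untreated and treated siSFPQ cells, against 12.7 and 12.8 FPKM in untreated and treated siCTL cells (2.198, SE 0.17, adjusted p = 1.26e-05). RRAD rose by 2.25, S100A1 by 2.04 and CYP17A1, a steroid hydroxylase, by 1.91. UGT2B4, a bile acid glucuronosyltransferase, had a larger estimate (2.54), but its 2 pairs differed widely, with 3.005 and 28.6 FPKM in untreated and treated siSFPQ cells against 0.476 and 1.39 FPKM in untreated and treated siCTL cells, and the fit of Huh7 alone did not call it (adjusted p = 0.0694). MYBPH (2.13) and LTB (2.04) were likewise called in the fit of 24 libraries only.

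Among the falls, EMID2, a collagen, had 3.53 and 2.54 FPKM in untreated and treated siSFPQ cells, against 36.7 and 28.4 FPKM in untreated and treated siCTL cells (-3.06, SE 0.09, adjusted p = 7.82e-08). No library of the other 5 lines held more than 0.201 FPKM of EMID2. SMYD3, a lysine methyltransferase, had 1.86 and 2.49 FPKM in untreated and treated siSFPQ cells, against 13.1 and 22.3 FPKM in untreated and treated siCTL cells (-2.52, SE 0.13, adjusted p = 9.50e-07), and the other 5 lines reached -2.51. LHPP fell by 2.92, PTGES3, the p23 co-chaperone, by 2.23, and the mechanosensitive channel PIEZO2 by 2.36. GPC6, a glypican, had 2.40 and 2.14 FPKM in untreated and treated siSFPQ cells, against 10.7 and 18.4 FPKM in untreated and treated siCTL cells, a fall of which the log2 change was -2.202. PRR4 and KRTAP19-5 fell by 2.23 and 2.53, both from low levels. PRR4 had 1.4e-06 and 0.348 FPKM in untreated and treated siSFPQ cells, against 5.78 and 3.36 FPKM in untreated and treated siCTL cells. KRTAP19-5 was listed at 0 in both siSFPQ libraries, against 5.90 and 3.82 FPKM in untreated and treated siCTL cells. It was also listed at 0 in every library of Hep3b, HepG2, HLE and SK-HEP1. COMMD3-BMI1 is a read-through of a pair of neighbouring genes whose reads it shares, and its change of -2.18 was not called with weighted libraries (adjusted p = 0.0718).

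Genes were also set in classes by the genomic span of their transcripts. Of 343 tested genes that span over 300 kb, 57.1% were called lower in the fit of 24 libraries, against 27.1% of the 2247 under 10 kb. The median change was -0.39 in the longest class and -0.06 in the shortest, and the longest class ran from -0.61 to -0.12 in the other 5 lines. The TGF-beta change had medians of -0.02 and -0.04 in the longest and the shortest class.

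Every measured gene of the G2/M list was lower after knockdown in the fit of 24 libraries (32 of 32), and 31 fell in both fits, with a median of -0.75 beside -0.08 over all genes tested. TOP2A, the mitotic topoisomerase, had 36.5 and 35.0 FPKM in untreated and treated siSFPQ cells, against 101.5 and 105.0 FPKM in untreated and treated siCTL cells (-1.504, SE 0.07, adjusted p = 6.11e-07). The spindle factor TPX2 fell by 1.30 and the proliferation marker MKI67 by 0.91. In the G1/S list 21 of 32 fell and 0 rose in both fits (25 and 0), with a median of -0.70: the methylation-maintenance factor UHRF1 fell by 1.33 and cyclin D1, CCND1, by 1.06. Of 27 homologous recombination and Fanconi genes 14 fell and 0 rose in both fits (17 and 0), with a median of -0.49. FANCD2 fell by 1.12 and BRCA1 by 0.79. These 3 medians lay inside the ranges of the other lines, which for G2/M ran from -1.79 to 0.03. Of all genes tested, 7.6% rose and 15.4% fell in both fits.

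Glycolysis and hypoxia genes had a median knockdown change of -0.44, with 16 of 27 measured members lower and 0 higher in both fits (19 and 1 in the fit of 24 libraries). Over the 29 members that were set against the other lines the Huh7 median lay outside their range of -0.10 to 0.16. PGK1, phosphoglycerate kinase, had 89.1 and 118.6 FPKM in untreated and treated siSFPQ cells, against 178.5 and 237.2 FPKM in untreated and treated siCTL cells (-0.99, SE 0.07, adjusted p = 5.03e-06). The other 5 lines changed PGK1 by -0.15 to 0.16, and the difference from Huh7 was not called (adjusted p = 0.367). HK1 fell by 0.94, the mitophagy gene BNIP3 by 0.96, LDHA by 0.76 and TPI1 by 0.64. Beside the list counts, 7.6% of all genes tested rose and 15.4% fell in both fits.

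**Figure D2:**
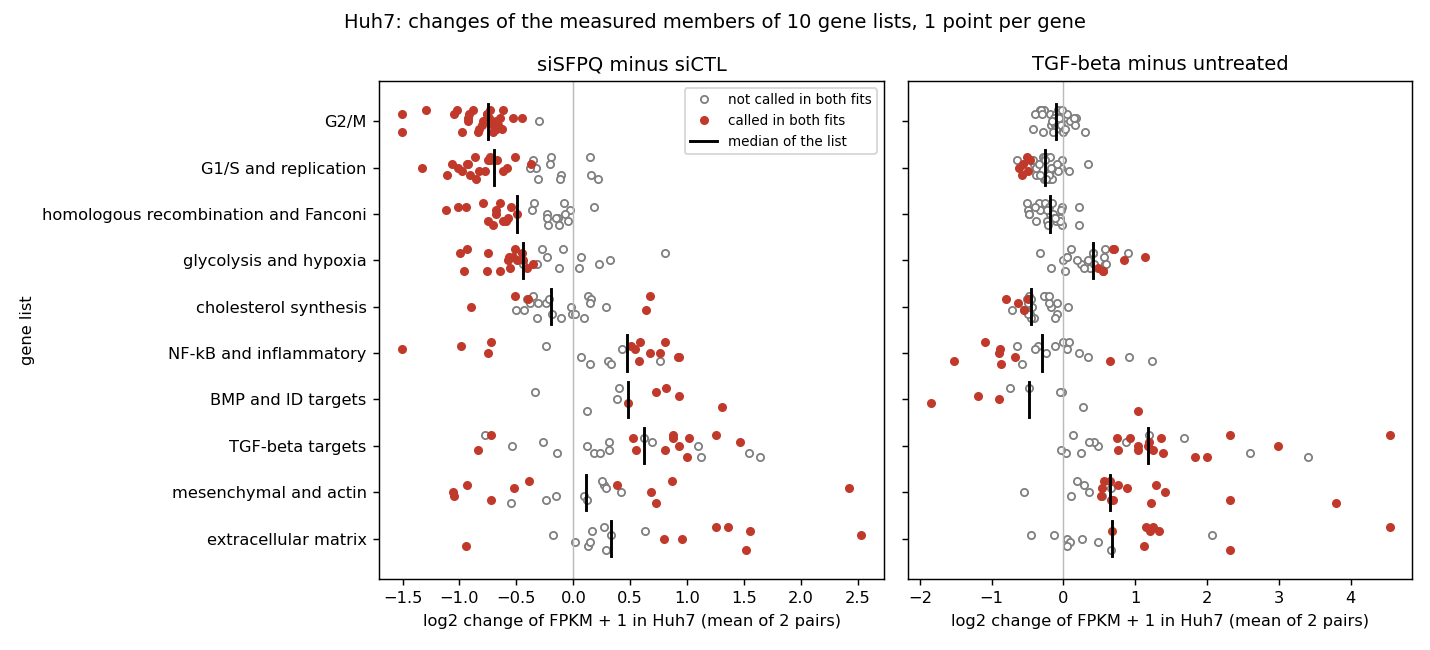
Change of each measured member of 10 gene lists in Huh7 after SFPQ knockdown (left) and under TGF-beta (right), as log2 changes of FPKM + 1 on the horizontal axis, 1 point per gene. Red points were called in both fits, open points were not, and black bars are list medians. The G2/M median is -0.75 after knockdown and -0.10 under TGF-beta, and the glycolysis and hypoxia median is -0.44 and 0.41.

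After knockdown 7.6% of all genes tested rose and 15.4% fell in both fits. Among 27 measured TGF-beta targets, knockdown raised 10 and lowered 2 in both fits (14 and 4 in the fit of 24 libraries), with a median of 0.62. In the TGF-beta-treated pair alone, which holds the shallowest library, the median was 0.94 with 15 higher and 2 lower. In the untreated pair alone it was 0.28, with 6 higher and 5 lower. CYR61, a matricellular protein, had 83.7 and 112.9 FPKM in untreated and treated siSFPQ cells, against 29.8 and 40.0 FPKM in untreated and treated siCTL cells (1.47, SE 0.12, adjusted p = 1.63e-05). The mesenchymal and actin list was split, with 5 of 20 measured members higher and 6 lower in both fits (6 and 7 in the fit of 24 libraries). Its median was 0.11. The contractile genes TAGLN, MYL9 and CALD1 fell by 0.72, 1.06 and 1.05. In contrast, VIM, an intermediate filament of mesenchymal cells, rose by 0.86 and S100A4 by 2.42. BMPR2, a BMP receptor, fell by 1.79 (other lines -2.04 to -0.56) and TGFBR2 rose by 0.70. SMAD4 changed by 0.25 (adjusted p = 0.0497 in the fit of 24 libraries and 0.262 in the fit of Huh7 alone), and its levels were 9.34 and 8.11 FPKM in untreated and treated siSFPQ cells, against 6.87 and 7.502 FPKM in untreated and treated siCTL cells. SMAD7 rose by 0.53, above the -0.42 to -0.13 of the other 5 lines, a difference that was not called (adjusted p = 0.552).

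BMP and ID targets rose in 5 of 9 measured members with 0 falls in both fits (7 and 0), and the median of 0.40 over 11 members lay outside the -0.02 to 0.19 of the other lines. SMAD6, an inhibitor of BMP signalling, rose by 1.30, ID3 by 0.93, ID1 by 0.82 and the ligand BMP4 by 0.72. NF-kB and inflammatory genes rose in 9 and fell in 4 of 20 measured members in both fits (11 and 4), with a median of 0.47. Of all genes tested, 7.6% rose and 15.4% fell in both fits after knockdown, and 5.01% rose and 3.82% fell under TGF-beta. NFKBIA, the IkB-alpha inhibitor, rose by 0.81, RELB by 0.92 and the chemokine gene IL8 by 0.93, whereas SAA2, an acute-phase protein, fell by 1.502 and SOD2 by 0.72. Over 23 members the knockdown median was 0.33, inside the -0.02 to 0.40 of the other lines. Under TGF-beta 6 of the 20 fell and 1 rose in both fits, with a median of -0.30. Over the 23 members it was -0.12, inside the -0.47 to 0.07 of the other lines. The immune markers CD68 and LYZ fell by 0.86 and 0.66 under TGF-beta, both of the 2 measured on that list, and their part in these values was not tested. MAPK phosphatases and immediate early genes rose in 10 of 24 measured members and fell in 1 in both fits after knockdown, with DUSP10 up by 1.24, DUSP1 by 1.15 and MYC by 0.91.

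Liver genes did not move as a block. ALB, serum albumin, had 203.6 and 181.7 FPKM in untreated and treated siSFPQ cells, against 70.5 and 72.8 FPKM in untreated and treated siCTL cells (1.41, SE 0.14, adjusted p = 4.91e-05). APOA2, a high-density lipoprotein protein, had 1430 and 1044 FPKM in untreated and treated siSFPQ cells, against 331.8 and 237.3 FPKM in untreated and treated siCTL cells (2.12, SE 0.16, adjusted p = 1.13e-05). APOE rose by 0.85 and TTR by 1.06, while haptoglobin, HP, fell by 1.28. Of 27 measured plasma protein genes 6 rose and 2 fell in both fits, with a median of 0.05, beside 7.6% of all genes that rose and 15.4% that fell. AFP, alpha-fetoprotein, had 13080 and 11570 FPKM in untreated and treated siSFPQ cells, against 8400 and 7857 FPKM in untreated and treated siCTL cells. Its untreated and treated pairs changed by 0.64 and 0.56. Their mean of 0.60 was not called in the fit of 24 libraries (SE 0.52, adjusted p = 0.383). That SE takes its spread from all 6 lines, whose AFP pairs differed most in Huh1 (-0.98 and 1.05). The hepatocyte factor HNF4A changed by -0.09 (adjusted p = 0.541). Drug-metabolism genes had a median of 0.37 over 16 members, outside the -0.17 to 0.06 of the other lines, with CYP2E1 up by 1.44 and CYP3A5 by 1.53, in a list of which 14 members passed the filter, 3 rose and 1 fell in both fits. Over those 14 the median was 0.44, but it was 0.106 in the TGF-beta-treated pair alone, and over 25 members with no filter it was 0.104. Under TGF-beta TTR fell by 0.93, antithrombin, SERPINC1, by 0.79 and the bile transporter ABCC2 by 1.18, whereas ALB changed by -0.06 (adjusted p = 0.797).

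Stress, secretion and survival lists held further changes. Beside them stand the shares of all genes called in both fits. These were 7.6% higher and 15.4% lower after knockdown, and 5.01% higher and 3.82% lower under TGF-beta. Of 23 genes of the integrated stress and unfolded protein responses, 8 fell and 2 rose after knockdown in both fits (10 and 2 in the fit of 24 libraries). DNAJB9, a chaperone of the endoplasmic reticulum, fell by 1.09, the secretory factor XBP1 by 0.95 and PHGDH, the first enzyme of serine synthesis, by 0.96. Of 21 measured p53 targets, 6 rose and 1 fell in both fits after knockdown (10 and 1): the cytokine GDF15 rose by 1.36 and the BH3-only gene BBC3 by 1.02, while RRM2B, a ribonucleotide reductase subunit, fell by 0.99. Under TGF-beta 6 of the 21 rose and 1 fell (6 and 3), with the DNA-damage gene DDB2 up by 1.316. BCL2L11, which encodes the death protein BIM, rose by 1.11 under TGF-beta and by 0.62 after knockdown.

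Among liver transcription factors, ONECUT1 fell by 1.24, ONECUT2 by 0.85 and the xenobiotic receptor NR1I3 by 1.05 after knockdown. Of the 20 on that list, 3 fell and 1 rose in both fits (5 and 2 in the fit of 24 libraries), beside 15.4% of all genes that fell, and the list's median of -0.11 stood beside -0.08 over all genes tested. Of 22 measured epithelial junction genes, 6 rose and 1 fell in both fits after knockdown (10 and 3), and 3 rose and 0 fell under TGF-beta (5 and 3). KRT19, a keratin of bile duct and progenitor cells, rose by 1.36 and EPCAM by 0.75 after knockdown, while the junction genes TJP1, CLDN6 and CGN rose by 0.56, 0.77 and 0.80 under TGF-beta. FASN, fatty acid synthase, fell by 0.62 under TGF-beta, in a list of 19 with 3 falls and 0 rises in both fits (9 and 1). FADS1, a fatty acid desaturase, fell by 1.21 after knockdown. OAS1, an interferon-induced gene, rose by 1.35 after knockdown, and 3 of 19 measured interferon genes rose and 0 fell in both fits (6 and 2). For these lists too, 7.6% of all genes rose and 15.4% fell in both fits after knockdown. Under TGF-beta 5.01% rose and 3.82% fell.

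**Figure D3:**
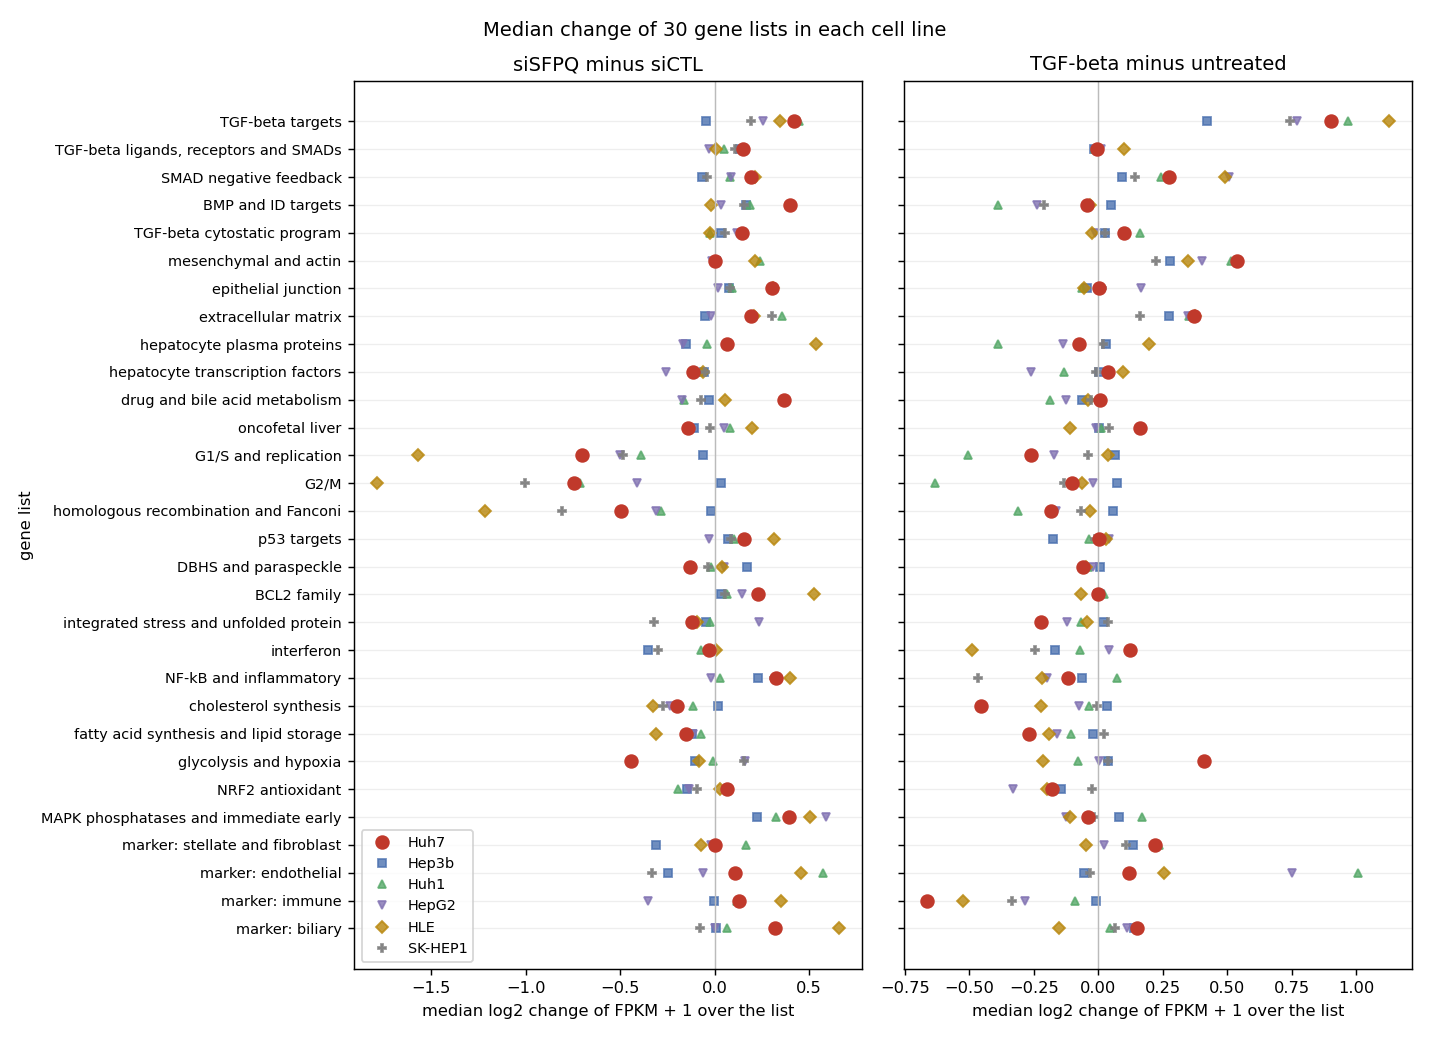
Median log2 change of FPKM + 1 of 30 gene lists after SFPQ knockdown (left) and under TGF-beta (right) in Huh7 (red circles) and in each of the other 5 lines. Huh7 lies outside the range of the other lines for glycolysis and hypoxia in both panels (-0.44 and 0.41) and for cholesterol synthesis under TGF-beta (-0.46), and inside it for G2/M and for TGF-beta targets in both. It lies outside in 8 of 30 lists on the left and 11 on the right. Each other line does so in 4 to 17 lists on the left and 6 to 13 on the right.

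Set against the other lines in its knockdown response, Huh7 lay outside the range of the other 5 in 33.4% of 13493 genes, where each other line, treated the same way, did so in 24.8% to 42.6%, and in 8 of 30 list medians, where the others did so in 4 to 17. The test of Huh7 against the other 5 takes the spread between lines and assumes that Huh7 varies as they do. It called 1 gene for the knockdown change (0.00741%), ACTA1 with a difference of -2.29 (adjusted p = 0.0474), while 718 genes (5.32%) had an unadjusted p under 0.05. ACTA1 was at most 0.381 FPKM in Hep3b, Huh1, HLE and SK-HEP1, where this scale understates changes, and at 8.18 to 33.4 FPKM in HepG2. The call of ACTA1 was lost when any other line was left out. It was also lost without the pair that holds the shallowest library (difference -1.66, adjusted p = 0.331). The next genes by p value did not pass: IGDCC3, a surface protein, had 48.1 and 82.8 FPKM in untreated and treated siSFPQ cells, against 12.2 and 24.2 FPKM in untreated and treated siCTL cells, a change of 1.82 set against -0.19 to 0.07 in the other 5 lines (adjusted p of the difference 0.152). For PRODH, LBP, CD74 and HRC the changes of 1.36 to 1.75 likewise lay above the other 5 lines, and for NPPB and HIST1H2AC those of -2.002 and -1.70 lay below.

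For the TGF-beta response the SD of the change over genes was 0.383 in Huh7 and 0.166 to 0.322 in the other lines, and 44.0% of genes lay outside the range of the other 5, where each other line did so in 27.3% to 37.4%. For the list medians this was 11 of 30 in Huh7 and 6 to 13 in each other line. Of 13493 genes 52 were called (0.385%), 38 higher (0.282%) and 14 lower (0.104%) in Huh7, and 1613 (12.0%) had an unadjusted p under 0.05. This count depended on which lines were kept: it was 197 without HepG2, 24 without Huh1 or HLE, 19 without Hep3b and 0 without SK-HEP1. With TGF-beta in siCTL cells alone, which leaves out the shallowest library, 74 genes were called, 33 of them among the 52.

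Among the called genes, CTSH, a lysosomal protease, had 102.8 and 85.3 FPKM in Huh7 siSFPQ and siCTL cells with TGF-beta, against 8.91 and 14.5 FPKM in untreated siSFPQ and siCTL cells, and the other 5 lines changed by -0.60 to 0.38 (difference 3.10, SE 0.31, adjusted p = 0.0177). PPP1R12B, a myosin phosphatase subunit, had 20.7 and 15.7 FPKM in siSFPQ and siCTL cells with TGF-beta, against 4.10 and 3.19 FPKM in untreated siSFPQ and siCTL cells (difference 1.98, SE 0.16, adjusted p = 0.0137). RGS5, a pericyte marker, had 6.29 and 6.48 FPKM in siSFPQ and siCTL cells with TGF-beta, against 0.440 and 1.86 FPKM in untreated siSFPQ and siCTL cells (difference 2.00, SE 0.14, adjusted p = 0.0137). CNN1 differed by 3.36, CRYAA, an alpha-crystallin, by 3.76, and the sulfotransferase CHST15 by 2.24. In the other direction, IRF8, a transcription factor of myeloid cells, had 24.5 and 14.2 FPKM in siSFPQ and siCTL cells with TGF-beta, against 84.3 and 30.8 FPKM in untreated siSFPQ and siCTL cells, and at most 3.38 FPKM in any library of the other lines. CXCL5 differed by -1.98, the drug efflux pump ABCB1 by -1.21 and the kinase PIM2 by -1.20. NT5E, the ectonucleotidase CD73, fell by 0.70 in Huh7, while it changed by 0.31 to 0.61 in the other 5 lines (difference -1.19, SE 0.14, adjusted p = 0.0303). Some of these genes were nearly silent elsewhere: 13 of the 52 reached 1 FPKM in at most 1 other line.

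**Figure D4:**
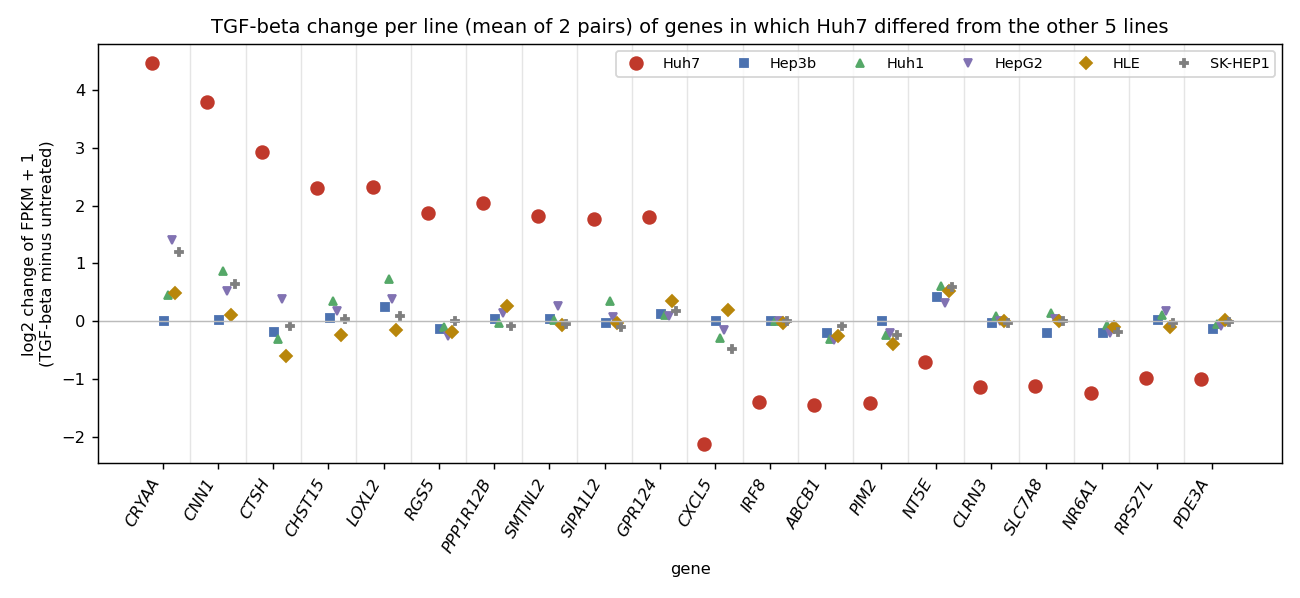
Change under TGF-beta (log2 change of FPKM + 1, mean of 2 pairs) on the vertical axis for the 20 named genes in which Huh7 (red circles) differed from the other 5 lines (other symbols). Huh7 lies above all 5 lines for the 10 genes on the left and below all 5 for the 10 on the right, from 4.46 for CRYAA to -2.13 for CXCL5.

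The last question was whether TGF-beta changed genes differently in siSFPQ and siCTL cells. Within Huh7 this rests on 4 libraries with no spread left, so it was tested only against the same quantity in the other 5 lines. Each Huh7 value includes the siSFPQ library with TGF-beta, at 0.355 of the median depth, and 51.2% of genes lay outside the range of the other 5 lines, where each other line did so in 23.1% to 40.3%. For the list medians this was 15 of 30 in Huh7 and 6 to 13 in each other line. Of 13493 genes 18 were called (0.133%), 11 higher (0.0815%) and 7 lower (0.0519%), with 2385 (17.7%) at an unadjusted p under 0.05. The count was 34 without HepG2, 15 without HLE, 2 without SK-HEP1, 1 without Hep3b and 0 without Huh1. TGFB1, a TGF-beta ligand, had 88.2 and 32.8 FPKM in siSFPQ and siCTL cells with TGF-beta, against 15.2 and 17.1 FPKM in untreated siSFPQ and siCTL cells. Its TGF-beta change was thus 2.46 in siSFPQ and 0.90 in siCTL cells, an excess of 1.56 where the other 5 lines had 0.22 to 0.45 (difference 1.23, SE 0.13, adjusted p = 0.0262). TGFB3, another ligand of the family, had 7.34 and 0.835 FPKM in siSFPQ and siCTL cells with TGF-beta, against 0.575 and 0.506 FPKM in untreated siSFPQ and siCTL cells, so the high value was that of 1 library (difference 2.02, SE 0.25, adjusted p = 0.0307). S100A6, a calcium-binding protein, had 361.3 and 93.5 FPKM in siSFPQ and siCTL cells with TGF-beta, against 111.2 and 56.6 FPKM in untreated siSFPQ and siCTL cells (difference 1.19, SE 0.14, adjusted p = 0.0307). GPC1, a glypican, and TTYH1, a chloride channel protein, had differences of 1.88 and 2.08. Both were above 4 FPKM in the siSFPQ library with TGF-beta and under 2 FPKM in the other 3. TTYH1 was at most 0.104 FPKM in Hep3b, Huh1, HLE and SK-HEP1, where this scale understates changes. Of the 18 called genes, 5 reached 1 FPKM in at least 2 libraries of at most 1 other line. VCAM1, an adhesion molecule, had 2.65 and 8.32 FPKM in siSFPQ and siCTL cells with TGF-beta, against 4.28 and 2.80 FPKM in untreated siSFPQ and siCTL cells (difference -1.90, SE 0.19, adjusted p = 0.0262), but reached 1 FPKM in only 1 other line.

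Other targets had large but uncalled values. IL11, a cytokine, had 24.1 and 2.01 FPKM in siSFPQ and siCTL cells with TGF-beta, against 0.442 and 0.420 FPKM in untreated siSFPQ and siCTL cells, and its excess of 3.04 did not pass against the other lines (adjusted p = 0.243). PDGFB, a platelet-derived growth factor, had 36.4 and 4.17 FPKM in siSFPQ and siCTL cells with TGF-beta, against 0.524 and 0.139 FPKM in untreated siSFPQ and siCTL cells (excess 2.43, adjusted p = 0.133). The median excess of the 32 TGF-beta targets was 0.51 in Huh7, inside the 0.18 to 0.65 of the other lines, and that of cholesterol synthesis genes was -0.47, outside their -0.36 to -0.03.

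**Figure D5:**
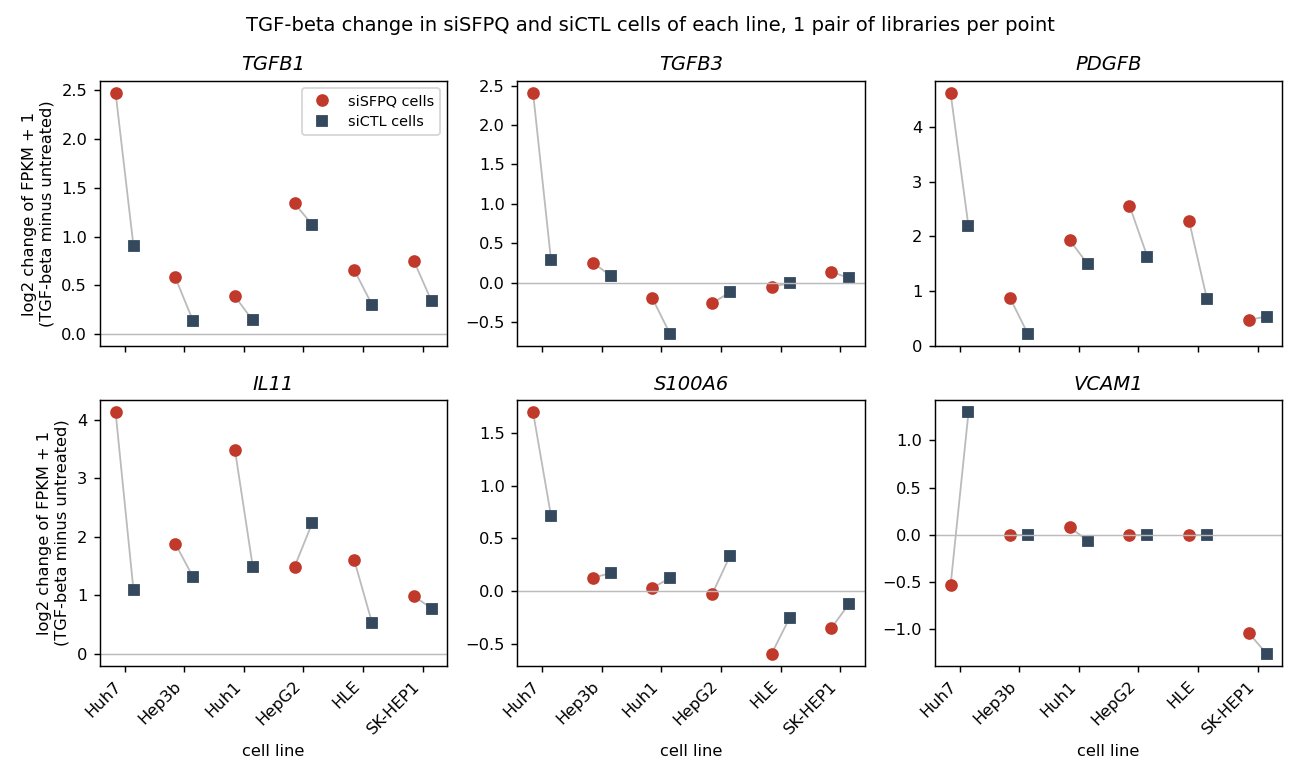
TGF-beta change (log2 change of FPKM + 1) on the vertical axis in siSFPQ cells (red circles) and siCTL cells (dark squares) of each line for 6 genes, 1 pair of libraries per point. TGFB1 changed by 2.46 in siSFPQ and 0.90 in siCTL cells of Huh7, and VCAM1 by -0.53 in siSFPQ and 1.30 in siCTL cells.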

How the data were processed

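Polyadenylated RNA of 24 libraries was sequenced, and the authors deposited a table of FPKM values, made with TopHat2 2.1.1 and Cufflinks 2.2.1 on hg19 per the submitters' processing notes. The annotation and settings were not stated there. The 2 columns of no sample were not used. Of 23284 rows, 1628 short RNA genes were left out, which held 50.4% to 51.9% of the summed FPKM of the Huh7 libraries, and 1265 values under 1e-06 were set to 0. A count test was planned had the values been counts; as they were FPKM, limma 3.58.1 in R 4.3.3 was run on log2(FPKM + 1). The model held a term for each line, a knockdown and a TGF-beta term within each line and 1 common interaction, with 5 residual degrees of freedom, trended robust moderation and Benjamini-Hochberg adjustment at 0.05, over 12613 genes at 1 FPKM or more in at least 2 of the 4 Huh7 libraries. Its p-values take Huh7 to vary like the other lines. The fit of Huh7 alone has 1 residual degree of freedom, which is the interaction of knockdown and TGF-beta. Huh7 was set against the other 5 lines with 1 change per line (limma, 4 residual degrees of freedom, 13493 genes at 1 FPKM or more in at least 6 of 24 libraries). The residual of the fit of 24 libraries is the departure of each line's interaction from the common one. In the test against the other lines it is the spread of the changes between lines. P-values rest on these spreads and not on replicate libraries of a condition. Either spread may be technical or may hold true differences between lines.

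Libraries of the same line deviated together (correlations of 0.874 to 0.978 over 36 pairs, against -0.514 to 0.410 over 180 pairs of other lines and groups), and the line was kept as the block. Named genes were SFPQ, a fixed set of pathway and liver genes, the 10 called genes that changed most in each direction (mean log2(FPKM + 1) of 1 or more, and the same sign in both pairs, or for differences a Huh7 value outside the range of the other lines) and, per list, up to 4 with the smallest p. LDHA, IL8, IL11, PDGFB, ACTA2 and PMEPA1 were named after their values were seen. The set of libraries and all gene lists were chosen with earlier results of these data known. Depth was estimated from the steps between low values, assuming fragments of 180 bases. The fits were checked on simulated data. Alternatives were another pseudocount, filters, scaling, leaving out libraries or lines and the fit of Huh7 alone; some, such as library weights, were chosen after seeing the data. Promoter sequence is from the RefSeq table of another build than that of the FPKM values and was used for its letters only. Results of a few genes that fall under the rule for named genes are not reported here.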

Additional observations from a re-analysis of the deposited data

Results flagged for a closer look

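In 36 named genes the Huh7 change differed from that of the other 5 lines by the limma test of the difference itself, with values in log2(FPKM + 1). For the knockdown change this was ACTA1 (-2.29), which was at most 0.381 FPKM in the other lines except HepG2.

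For the TGF-beta change the genes higher in Huh7 were CRYAA (3.76), CNN1 (3.36), CTSH (3.095), CHST15 (2.24), LOXL2 (2.06), RGS5 (1.999), PPP1R12B (1.975), SMTNL2 (1.77), SIPA1L2 (1.71) and GPR124 (1.64). Those lower in Huh7 were CXCL5 (-1.98), IRF8 (-1.397), ABCB1 (-1.21), PIM2 (-1.202), NT5E (-1.19), CLRN3 (-1.15), SLC7A8 (-1.115), NR6A1 (-1.09), RPS27L (-1.02) and PDE3A (-0.954).

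For the excess of the TGF-beta change in siSFPQ over siCTL cells, TTYH1 (2.075), TGFB3 (2.015), GPC1 (1.88), FABP5 (1.702), TFF2 (1.698), RHEBL1 (1.45), TGFB1 (1.23), S100A6 (1.19) and EFHD2 (0.917) were higher in Huh7. Lower were VCAM1 (-1.899), C1QTNF3-AMACR (-1.76), TRIM73 (-1.63), GLS2 (-1.56), SLC30A1 (-1.33) and SFXN3 (-1.101). Each of these excess values rests on 4 Huh7 libraries, among them the shallowest. TTYH1, TFF2, VCAM1 and C1QTNF3-AMACR reached 1 FPKM in only 1 other line, and GLS2 was at most 1.31 FPKM outside Huh7 and HepG2. C1QTNF3-AMACR is a read-through and TRIM73 has near-identical copies, so their values are uncertain. Among 90 list medians over the 6 lines, Huh7 stood apart by Dixon's criterion in 0. Chance flags about 5% of groups with any of the 6 lines as the one apart, and Huh7 in fewer. The 0 therefore does not show that Huh7 resembles the other lines.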

How the results depend on the processing

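The fit of the 4 Huh7 libraries alone called 2928 genes for knockdown and 1132 for TGF-beta, and weighted libraries 2738 and 1205. Another fit of the 4 Huh7 libraries alone kept the tested effect and dropped the term of the other treatment. In that fit 0 genes passed for either effect in limma (2685 and 993 at an unadjusted p under 0.05). Leaving out Huh7 libraries gave 4569 to 4847 calls for knockdown and 2207 to 3492 for TGF-beta, the lowest without siSFPQ with TGF-beta (2207) and without untreated siSFPQ (2209). Against the other 5 lines, the counts for knockdown, TGF-beta and their interaction were 0, 15 and 32 at a pseudocount of 0.1, 299, 485 and 320 with no filter, and 0, 6 and 9 at a mean of at least 5 FPKM. With the spread taken within lines they were 2857 for knockdown and 1733 for TGF-beta. Leaving out 1 other line gave 0 in each case for knockdown, 0 to 197 for TGF-beta and 0 to 34 for the interaction. The causes were not tested. No called change of a named gene changed sign under the alternatives run. Changes near 0 that were not called did, among them those of SFPQ (-0.15 to 0.08 when 1 Huh7 library was left out), SMAD4 (-0.18 to 0.11) and ALB (-0.16 to 0.05) under TGF-beta, and that of HNF4A after knockdown (-0.21 to 0.03). Each interaction value of Huh7 includes the siSFPQ library with TGF-beta, at 0.355 of the median depth, and the part of depth was not tested.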
